A study of Arabidopsis thaliana with 36 samples.

Results

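The type-A response regulators of Arabidopsis thaliana are a family of 10 genes, ARR3, ARR4, ARR5, ARR6, ARR7, ARR8, ARR9, ARR15, ARR16 and ARR17. The members were chosen by their locus identifiers among the 33977 genes measured. Levels are in CPM, the reads of a gene scaled to a library total of 1e6. 8 of the 10 had at least 1 CPM in at least 3 of the 36 libraries and are among the 18875 genes tested. ARR3 and ARR17 lay under that level and are described by their values alone.

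Cytokinins are plant hormones that are sensed by histidine kinase receptors in the membranes of the cell. The signal passes as a phosphate group from the receptors (AHK2, AHK3 and AHK4) to phosphotransfer proteins (AHPs), and from these to response regulators. Type-B response regulators are transcription factors, and the type-A genes are among the first genes they switch on. The mRNA of the type-A genes is therefore widely used as a readout of cytokinin signalling. Type-A proteins have the phosphate-receiving domain without a DNA-binding domain, and they dampen the pathway, which makes a negative feedback loop. The family falls into the sequence pairs ARR3 and ARR4, ARR5 and ARR6, ARR7 and ARR15, ARR8 and ARR9, and ARR16 and ARR17.

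The plants were unmutated Col-0 at 4 weeks of age, kept cold at 4 °C for 3 days before germination and then grown at 22 °C in short days of 8 h light and 16 h dark. Irradiated plants received gamma rays from a 137Cs source at 1.4 cGy per second, for 7 s to reach 10 cGy or for 71 s to reach 100 cGy, and mock plants were not exposed. Whole rosettes were taken 1, 3, 24 or 72 h later, with 3 libraries for each of the 12 combinations of dose and time. Polyadenylated RNA was sequenced from strand-specific libraries. The labels do not say whether the replicates came from separate plants or pools, so p-values measure the spread between these libraries, which may in part be technical. How mock plants were handled during the exposure and the hour of the day at each harvest are not given in the sources used here.

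Depth was found by taking the commonest of each library's low values above 0 as 1 read. It was 22.1 to 36.7 in units of 1e6 assigned reads, and replicates of a group correlated at Pearson r = 0.979 to 0.994 across genes. The floor of 3 reads lay at 0.0818 to 0.136 CPM, which covers counting error only. The libraries carried the markers of green shoot tissue: summed mesophyll markers lay between 35380 and 48080 CPM in every library, and 3 of 4 root markers were under the floor in all 36, with COBL9 at 3 reads in 4 libraries. Of 6 flower markers only AP1 was under the floor in all 36. AG, PI and SEP3 reached it in 29, 19 and 15 libraries, and AP3 and LFY in 7 and 5. The 6 summed to at most 1.05 CPM in any library. The meristem genes WUS and CLV3 reached 3 reads in 1 library each, while STM and KNAT1, which mark the meristem region, averaged 3.96 and 3.72 CPM. The first 10 cGy library at 3 h had the highest share of chloroplast transcripts, 0.608%, against a median of 0.213%.

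The sequence just before the start of 6 members is shown because these are the members that passed a test against mock plants, and because cytokinin-responsive promoters are known for short sites of the type-B regulators. Each run is the 250 bases upstream of the annotated gene start in RefSeq's TAIR10.1 assembly, 5′ to 3′ on the strand of the gene, and the capitals mark AGATT or AGATC on either strand (AATCT and GATCT on the other).
ARR4, chr1:3444361-3444610, minus strand: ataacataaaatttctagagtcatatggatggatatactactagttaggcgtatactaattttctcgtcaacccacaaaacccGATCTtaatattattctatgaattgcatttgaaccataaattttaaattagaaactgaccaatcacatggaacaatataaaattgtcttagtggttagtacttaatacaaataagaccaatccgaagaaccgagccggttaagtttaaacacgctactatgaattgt
ARR6, chr5:25254319-25254568, minus strand: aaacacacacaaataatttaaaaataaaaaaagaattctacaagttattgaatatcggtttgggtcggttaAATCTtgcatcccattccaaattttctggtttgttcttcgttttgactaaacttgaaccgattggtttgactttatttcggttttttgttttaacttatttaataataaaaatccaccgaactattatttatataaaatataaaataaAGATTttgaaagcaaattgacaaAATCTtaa
ARR7, chr1:6579315-6579564, minus strand: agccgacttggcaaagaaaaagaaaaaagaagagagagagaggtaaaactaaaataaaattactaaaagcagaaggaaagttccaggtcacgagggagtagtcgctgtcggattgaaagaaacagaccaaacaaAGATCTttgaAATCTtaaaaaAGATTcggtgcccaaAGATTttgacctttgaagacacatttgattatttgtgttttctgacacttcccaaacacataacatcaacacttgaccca
ARR15, chr1:28133026-28133275, minus strand: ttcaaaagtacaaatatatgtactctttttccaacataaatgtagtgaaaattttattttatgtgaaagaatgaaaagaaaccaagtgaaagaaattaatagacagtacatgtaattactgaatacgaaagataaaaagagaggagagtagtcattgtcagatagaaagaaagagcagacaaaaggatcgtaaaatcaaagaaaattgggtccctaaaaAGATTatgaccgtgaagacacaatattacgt
ARR8, chr2:17221590-17221839, plus strand: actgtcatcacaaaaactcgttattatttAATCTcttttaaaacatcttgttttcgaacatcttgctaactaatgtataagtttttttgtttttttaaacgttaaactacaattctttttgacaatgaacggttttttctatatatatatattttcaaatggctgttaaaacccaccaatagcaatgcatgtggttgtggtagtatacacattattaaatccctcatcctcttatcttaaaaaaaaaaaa
ARR16, chr2:16969423-16969672, plus strand: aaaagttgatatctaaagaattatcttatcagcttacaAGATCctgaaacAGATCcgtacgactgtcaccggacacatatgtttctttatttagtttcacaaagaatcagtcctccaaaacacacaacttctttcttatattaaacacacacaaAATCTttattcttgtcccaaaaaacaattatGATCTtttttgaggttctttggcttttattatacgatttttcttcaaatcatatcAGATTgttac
ARR7 and ARR16 held 5 matches each, overlapping matches counted separately, a number reached in 2.52% of all 27437 windows of this length. ARR6 held 3, a number reached in 18.3% of windows. ARR4, ARR8 and ARR15 held 1 each, and at least 1 was present in 73.2% of all windows and in all 10 members. AGATT alone was in 7 members and 63.7% of windows, and AGATC alone in 5 members and 26.6% of windows. GGATT and GGATC, also searched on both strands but not marked, were in 6 and 2 members and in 38% and 18.3% of windows. The G-box CACGTG and the evening element AAAATATCT, each searched on both strands, were in 0 members and in 6.49% and 2.36% of windows. A match is a description of the letters in this window and not a measured binding site.

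Expressed per kilobase of the longest annotated transcript and averaged over 36 libraries, the levels of the tested members ranged from 1.83 to 45.1 CPM per kb. ARR4 (AT1G10470, chr1:3441988-3444360, minus strand), a member known to bind the light receptor phytochrome B, was the most abundant. ARR7 (AT1G19050, chr1:6577833-6579314, minus strand), known with ARR15 as a target repressed by WUSCHEL in the shoot meristem, followed at 28.7 CPM per kb. ARR9 (AT3G57040, chr3:21109059-21111567, plus strand) averaged 20.3 CPM per kb and its pair ARR8 (AT2G41310, chr2:17221840-17224880, plus strand) 14.0. RefSeq lists AT2G41310 under the symbol RR3, and it is a different locus from ARR3. ARR6 (AT5G62920, chr5:25252007-25254318, minus strand) averaged 13.6 CPM per kb. ARR15 (AT1G74890, chr1:28131447-28133025, minus strand) averaged 9.19 CPM per kb, and ARR5 (AT3G48100, chr3:17758427-17760950, minus strand), whose promoter drives a common cytokinin reporter, 8.89. ARR16 (AT2G40670, chr2:16969673-16972113, plus strand) was the lowest of the tested members. All spans are gene bodies in TAIR10.1.

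Neighbours in this order could not always be told apart. Within the mock libraries at 1 h, the ranges of ARR8 and ARR6 overlapped, at 10.5 to 11.6 and 8.93 to 11.9 CPM per kb, and so did those of ARR15 and ARR5. ARR4, ARR7 and ARR9 were each apart from the next member, at 47.1 ± 3.06, 23.1 ± 2.44 and 15.0 ± 0.564 CPM per kb (SD, n = 3). At 24 h in mock plants ARR9, ARR6, ARR8 and ARR15 formed an overlapping run from 15.6 to 25.9 CPM per kb.

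ARR3 (AT1G59940, chr1:22065617-22067233, minus strand) had a value above 0 in 7 of 36 libraries, with at most 2 reads in any. ARR17 (AT3G56380, chr3:20905264-20906397, plus strand) was above 0 in 12 libraries and reached the floor of 3 reads in 1 of them, with 4 reads. Neither was detectable in rosettes at this depth in most libraries. Each is the sequence partner of a detected gene, ARR4 and ARR16.

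The values of 6 tested members were whole multiples of 1 read in all 36 libraries (tolerance 0.02 reads). Those of ARR6 were whole in 1 library and those of ARR8 in 8, so part of their reads was assigned by estimate rather than counted whole. Where the remainder was assigned is not given in the files, and the levels of these 2 genes are less certain for that reason.

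In mock plants alone, most of the family was higher 24 h after the start than at 1 h. 6 of the 8 tested members rose by the limma test (adjusted p under 0.05 over all 18875 genes), where 20.3% of all genes rose and 18.1% fell. All 6 calls held in every alternative tried. Marker genes moved in the same comparison. The guard cell markers KAT1 and FAMA summed to 34.5 to 38.2 CPM at 1 h and 55.6 to 57.2 at 24 h, and SUC2, a sucrose transporter of companion cells, went from between 128 and 142 CPM to between 79.1 and 94.7. By limma KAT1 and FAMA were higher by 1.06 and 0.30 (adjusted p = 1.38e-10 and 0.0118) and SUC2 lower by 0.58 (adjusted p = 0.000114). The mesophyll markers CAB2 and LHCB1.3 were lower by 0.44 and 0.26 (adjusted p = 3.66e-05 and 0.00897), while RBCS1A, the other mesophyll marker, had a difference of 0.07 that did not pass (adjusted p = 0.415). Their part in the family's rise was not tested. Since the hour of harvest is not given, age, growth and time of day cannot be told apart in these differences. In bulk rosettes, fewer cells of a type and less RNA per cell cannot be told apart either, here or in any comparison that follows.

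ARR15 moved most with time in mock plants. It measured 6.57, 8.96 and 8.88 CPM at 1 h, 4.98, 5.46 and 5.03 at 3 h, 20.1, 16.9 and 21.3 at 24 h, and 7.18, 10.8 and 9.11 at 72 h. The 3 h libraries lay under all others and the 24 h libraries above all others, a 3.77-fold span between the means of 5.16 ± 0.266 and 19.4 ± 2.32 CPM (SD, n = 3). By limma it fell from 1 to 3 h by 0.60 on the log2 scale (adjusted p = 0.00274), lay 1.21 higher at 24 h than at 1 h (adjusted p = 5.34e-07), and fell from 24 to 72 h by 1.08 (adjusted p = 2.32e-06).

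ARR6 and ARR7 shared the 24 h peak. ARR6 measured 13.0, 17.4 and 14.2 CPM in mock plants at 1 h and 31.6, 31.2 and 37.7 at 24 h, a difference of 1.15 (SE 0.185, limma adjusted p = 1.22e-05). ARR7 measured 19.5, 24.1 and 22.0 CPM at 1 h and 44.5, 41.6 and 40.8 at 24 h, a difference of 0.94 (SE 0.145, adjusted p = 6.72e-06). Both fell again from 24 to 72 h, by 0.94 and 0.82 on the log2 scale (limma adjusted p = 0.000128 and 3.64e-05).

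ARR8, ARR9 and ARR5 also rose from 1 to 24 h and were still higher at 72 h. ARR8 measured 25.0, 27.5 and 24.9 CPM at 1 h, 45.3, 45.7 and 55.9 at 24 h, and 36.0, 39.9 and 41.5 at 72 h. ARR9 measured 25.4, 23.8 and 23.8 CPM at 1 h, 35.7, 35.7 and 40.9 at 24 h, and 38.6, 43.0 and 48.1 at 72 h. ARR5, the least abundant of the 3, measured 8.42, 11.2 and 10.9 CPM at 1 h, 14.5, 16.2 and 17.1 at 24 h, and 11.3, 16.5 and 17.1 at 72 h. The 24 h libraries lay above all 1 h libraries for each of the 3 genes, with differences by limma of 0.91 for ARR8 (adjusted p = 1.72e-07), 0.61 for ARR9 (adjusted p = 1.21e-05) and 0.63 for ARR5 (adjusted p = 0.00402). ARR9 and ARR16 had their highest mock mean at 72 h, and the other 6 tested members at 24 h. Against 1 h, the 72 h differences by limma were 0.59 for ARR8 (adjusted p = 0.000128), 0.81 for ARR9 (adjusted p = 2.66e-07) and 0.52 for ARR5 (adjusted p = 0.0187). These are 3 members higher of 8, beside 18.4% of all genes. The ARR5 call was lost without the first 1 h library (adjusted p = 0.118) or without the second or the third 72 h library (adjusted p = 0.0869 and 0.0983).

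ARR4 and ARR16 varied less regularly in mock plants. The mock means of ARR4 spanned 1.22-fold across the 4 times, from 85.2 CPM at 3 h to 104 at 24 h. ARR16 measured 3.06, 4.69 and 5.05 CPM at 1 h and 2.84, 2.70 and 2.23 at 3 h, with no overlap, a fall of 0.60 (limma adjusted p = 0.00751). That call was lost without the third 1 h library (adjusted p = 0.0571). From 1 to 3 h, ARR15 and ARR16 were the 2 members called, both lower, where 20.1% of all genes were lower. From 24 to 72 h, 5 members were lower beside 20.7% of all genes, among them ARR4 by 0.27 (adjusted p = 0.00417) and ARR8 by 0.32 (adjusted p = 0.0211). The ARR4 call was lost without the first 72 h library (adjusted p = 0.0522), and the ARR8 call without that library (adjusted p = 0.101) or the third 24 h library (adjusted p = 0.152). Marker genes moved between these times too. From 24 to 72 h KAT1 and FAMA were lower by 0.45 and 0.35 (limma adjusted p = 0.000132 and 0.00324), and SUC2 and CAB2 higher by 0.42 and 0.43 (adjusted p = 0.00275 and 3.14e-05), while RBCS1A, LHCB1.3, STM and KNAT1 did not pass. From 1 to 3 h KAT1 was higher by 0.57 and FAMA lower by 0.32 (adjusted p = 4.97e-06 and 0.00627), and the other 6 markers tested did not pass. Their part in the mock differences was not tested.

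**Figure D1:**
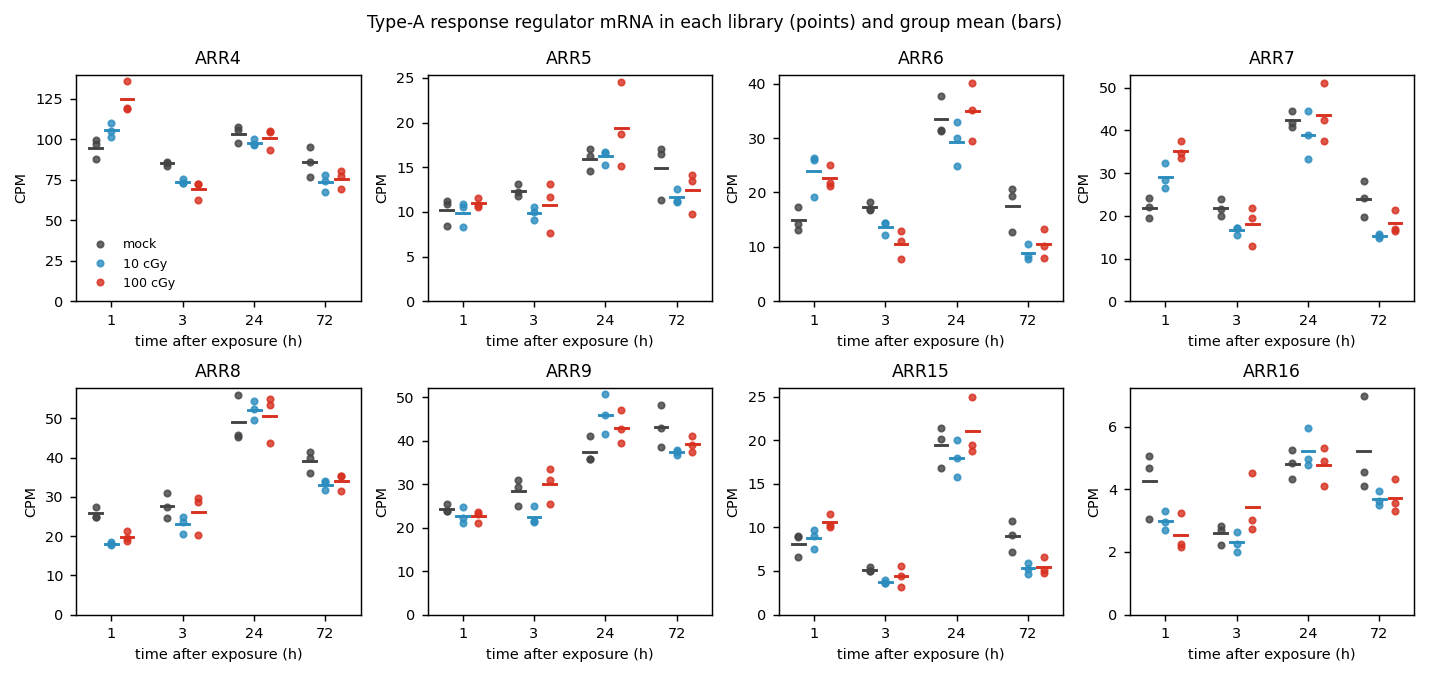
CPM of the 8 tested type-A genes in each of the 36 libraries, 1 panel a gene, against hours after exposure. Mock is in dark grey, 10 cGy in blue and 100 cGy in red, and short bars mark the group means. ARR15 in mock plants ranges from a mean of 5.16 CPM at 3 h to 19.4 CPM at 24 h, while at 72 h the 10 cGy libraries of ARR6, ARR7 and ARR15 all lie under the mock libraries.

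At 1 h after exposure the family split. ARR6 and ARR7 rose and ARR8 fell at both doses, ARR4 rose and ARR16 fell after 100 cGy, and ARR5, ARR9 and ARR15 passed the test at neither dose. After 10 cGy 2 members rose and 1 fell of the 8 tested, beside 13.6% of all genes higher and 11.8% lower (25.3% in either direction), which is not far from the share among all genes. After 100 cGy 3 rose and 2 fell, beside 10.3% and 7.37% of all genes. The doses share the mock libraries, so their differences from mock are not independent of each other.

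ARR7 measured 19.5, 24.1 and 22.0 CPM in mock libraries at 1 h, 26.5, 28.4 and 32.3 after 10 cGy, and 34.7, 37.4 and 33.5 after 100 cGy. The 3 groups did not overlap, with the 100 cGy libraries highest. The rise after 100 cGy was 0.68 (SE 0.145, limma adjusted p = 0.00109) and held in every alternative. The rise after 10 cGy was 0.41 (adjusted p = 0.0399). It was lost without the first or the third mock library (adjusted p = 0.163 and 0.0774), without the second or the third 10 cGy library (adjusted p = 0.0753 and 0.164), and without the filter on low genes (adjusted p = 0.0611).

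ARR6 measured 13.0, 17.4 and 14.2 CPM in mock libraries, 19.2, 26.1 and 26.3 after 10 cGy, and 21.7, 25.1 and 21.2 after 100 cGy. Every irradiated library lay above every mock library, and the doses overlapped each other. The rise after 10 cGy, 0.66 (SE 0.185, limma adjusted p = 0.00848), held in every alternative. The rise after 100 cGy, 0.60 (adjusted p = 0.0224), was lost without the first or the third mock library (adjusted p = 0.107 and 0.0677) or the second 100 cGy library (adjusted p = 0.0951).

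ARR4 measured 88.1, 99.9 and 97.1 CPM in mock libraries, 102, 105 and 110 after 10 cGy, and 119, 136 and 119 after 100 cGy. The 3 groups were ordered by dose without overlap. The rise after 100 cGy was 0.39 (SE 0.0747, limma adjusted p = 0.000307) and held in every alternative, while the 10 cGy difference of 0.16 did not pass (adjusted p = 0.134). ARR15, the partner of ARR7, measured 6.57, 8.96 and 8.88 CPM in mock libraries and 10.0, 11.5 and 10.3 after 100 cGy. These libraries did not overlap, yet the difference of 0.37 did not pass (SE 0.158, adjusted p = 0.111).

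ARR8 moved the other way. It measured 25.0, 27.5 and 24.9 CPM in mock libraries, 18.4, 17.8 and 17.9 after 10 cGy, and 19.5, 18.7 and 21.3 after 100 cGy, with every irradiated library under every mock library. The fall after 10 cGy was 0.50 on the log2 scale (SE 0.110, limma adjusted p = 0.00104) and held in every alternative. The fall after 100 cGy was 0.37 (adjusted p = 0.0163), which was lost without the second mock library (adjusted p = 0.0859) or the first or second 100 cGy library (adjusted p = 0.0538 and 0.0725). Its partner ARR9 differed from mock by −0.10 and −0.11 at the lower and the higher dose (adjusted p = 0.490 and 0.516).

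ARR16 measured 3.06, 4.69 and 5.05 CPM in mock libraries, 2.70, 3.31 and 2.95 after 10 cGy, and 2.14, 2.24 and 3.25 after 100 cGy. The first mock library overlapped the irradiated ones. The fall after 100 cGy was 0.64 (SE 0.181, limma adjusted p = 0.0127) and was lost without the second or the third mock library (adjusted p = 0.0699 and 0.085) or the first or second 100 cGy library (adjusted p = 0.0765 and 0.0599). The 10 cGy difference of −0.43 did not pass (adjusted p = 0.0826), though it did without the first mock library (adjusted p = 0.0166). At levels this low, adding 0.5 CPM before the log pulls the differences towards 0.

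Markers of other cell types gave few calls at 1 h. KAT1, a potassium channel of guard cells, was 0.45 higher after 10 cGy (limma adjusted p = 0.000309) and 0.31 higher after 100 cGy (adjusted p = 0.012). FAMA, the other guard cell marker, had differences of −0.10 and 0.01 that did not pass (adjusted p = 0.485 and 0.952). The 4 meristem genes summed to 6.07 to 7.79 CPM in mock, 2.39 to 6.97 after 10 cGy and 6.91 to 8.88 after 100 cGy, with WUS and CLV3 at 3 reads or fewer in any library, and neither STM nor KNAT1 passed the test. The part of these cell types in the type-A differences was not tested.

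At 3 h after exposure the differences of ARR4, ARR6 and ARR7 from mock were negative at both doses, and they passed the test for ARR4 and ARR6 after 100 cGy. ARR7, at −0.38 and −0.29 at the lower and the higher dose, passed at neither (limma adjusted p = 0.182 and 0.185). After 10 cGy all 8 tested members had negative differences, from −0.41 to −0.14, with a median of −0.32 beside −0.03 over all genes. None of the 8 passed by limma, where 1.49% of all genes were called. An unadjusted p under 0.05 was found for 5 of the 8 and for 16.3% of all genes. In 6 of the 8 every 10 cGy library lay under every mock library, beside 13% of all genes. ARR9 came nearest, at −0.33 (adjusted p = 0.085), and was called without the third mock library (adjusted p = 0.0318) or the third 10 cGy library (adjusted p = 0.0335).

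After 100 cGy ARR4 and ARR6 were the 2 members called at 3 h, both lower, where 1.86% of all genes were lower and 10.6% higher. When 1 library was left out the share lower ran from 0.472%, without the second 100 cGy library, to 1.99%, and the share higher from 2.33%, without that same library, to 16.8%, without the first 100 cGy library. The shares were 5.10% lower and 2.52% higher with rescaling by median ratios, and 0.461% and 2.25% with the 3 h libraries alone. ARR4 measured 85.7, 83.8 and 86.0 CPM in mock libraries and 72.6, 62.3 and 72.4 after 100 cGy, with no overlap, a fall of 0.30 (SE 0.0747, limma adjusted p = 0.0104). After 10 cGy it measured 72.9, 73.2 and 75.2 CPM, again under every mock library (difference −0.21, adjusted p = 0.155). The 100 cGy call was lost without the second 100 cGy library, the lowest (adjusted p = 0.0988).

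ARR6 measured 16.9, 18.2 and 16.8 CPM in mock libraries at 3 h, 14.3, 12.3 and 14.4 after 10 cGy, and 7.76, 11.1 and 12.9 after 100 cGy. Every irradiated library lay under every mock library. The fall after 100 cGy was 0.71 (SE 0.185, limma adjusted p = 0.0139) and was lost without the first 100 cGy library (adjusted p = 0.0599). That library had the lowest depth of all, 22.1 in units of 1e6 assigned reads. It was the lowest of its group for ARR5, ARR6, ARR7, ARR8, ARR9 and ARR15, though the highest for ARR4.

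Marker levels also differed at 3 h. The 3 mesophyll markers summed to 43660 to 46950 CPM in mock, 41140 to 42560 after 10 cGy and 37340 to 41530 after 100 cGy, with no overlap with mock at either dose. RBCS1A, which encodes a small subunit of Rubisco, was lower by 0.23 after 100 cGy (limma adjusted p = 0.0282). CAB2 and LHCB1.3 had differences of −0.13 and −0.22 that did not pass (adjusted p = 0.244 and 0.0609). After 10 cGy none of the 3 mesophyll markers passed. The guard cell sum was 34.7 to 41.2 CPM in mock and 42.9 to 46.6 after 100 cGy, where neither KAT1 nor FAMA passed (adjusted p = 0.0739 and 0.148). The part of these markers in the type-A differences was not tested.

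The median of all genes lay at 0.09 in the 100 cGy comparison at 3 h, and rescaling by median ratios moved it by −0.10, to −0.01. With that rescaling 33.1% of the calls over all genes were higher, against 85% without it. The ARR4 and ARR6 differences became −0.41 and −0.82 (limma adjusted p = 0.00144 and 0.00504). The difference of ARR9, 0.07 before, turned to −0.04, and neither value passed.

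ARR9 was the one member that differed between the doses by the test of that difference. At 3 h it measured 21.5, 21.3 and 24.9 CPM after 10 cGy and 25.4, 30.9 and 33.4 after 100 cGy, which did not overlap. The mock libraries, at 31.0, 29.3 and 24.9 CPM, all lay above the 10 cGy libraries, the lowest of them narrowly, and overlapped the 100 cGy libraries. The difference of 100 cGy from 10 cGy was 0.40 (SE 0.0975, limma adjusted p = 0.01), the 1 call among 8 members beside 11.7% of all genes higher. It was lost under rescaling by median ratios (0.26, adjusted p = 0.0907), which moved the median of all genes by −0.13, from 0.11 to −0.01, and the share of higher among all calls from 93.5% to 33.7%. The number of higher genes itself ran from 392 to 4070 when 1 library was left out, lowest without the second 100 cGy library and highest without the first, against 2217 with all. It was also lost with the 3 h libraries alone (adjusted p = 0.1), and without the second 10 cGy library (adjusted p = 0.0579) or the second or the third 100 cGy library (adjusted p = 0.0704 and 0.0722). At 1, 24 and 72 h no member passed this test between the doses by limma, where 0.726%, 1.13% and 0% of all genes were called. At an unadjusted p under 0.05 there were 1, 0 and 0 members, beside 9.45%, 18.9% and 9.9% of all genes.

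The turn between 1 and 3 h was itself tested, as the difference from mock at 3 h minus that at 1 h. After 100 cGy it was −1.31 for ARR6, −0.97 for ARR7 and −0.70 for ARR4 (limma adjusted p = 0.000979, 0.0018 and 3.85e-05), where 3.6% of all genes were called lower. After 10 cGy the same 3 genes were called, at −0.99, −0.78 and −0.36 (adjusted p = 0.00925, 0.00917 and 0.0193), where 8.78% of all genes were lower. ARR16 went the opposite way after 100 cGy, by 0.96 (adjusted p = 0.0123), beside 7.83% of all genes higher. The difference of ARR16 from mock at 3 h, 0.33, did not itself pass (limma adjusted p = 0.234). The ARR6 and ARR7 values at both doses and the ARR4 value after 100 cGy held in every alternative. The ARR4 value after 10 cGy was lost without the first mock library at 1 h (adjusted p = 0.0642) or the third 10 cGy library at 1 h (adjusted p = 0.0529), and that of ARR16 without the third 100 cGy library at 3 h (adjusted p = 0.051).

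**Figure D2:**
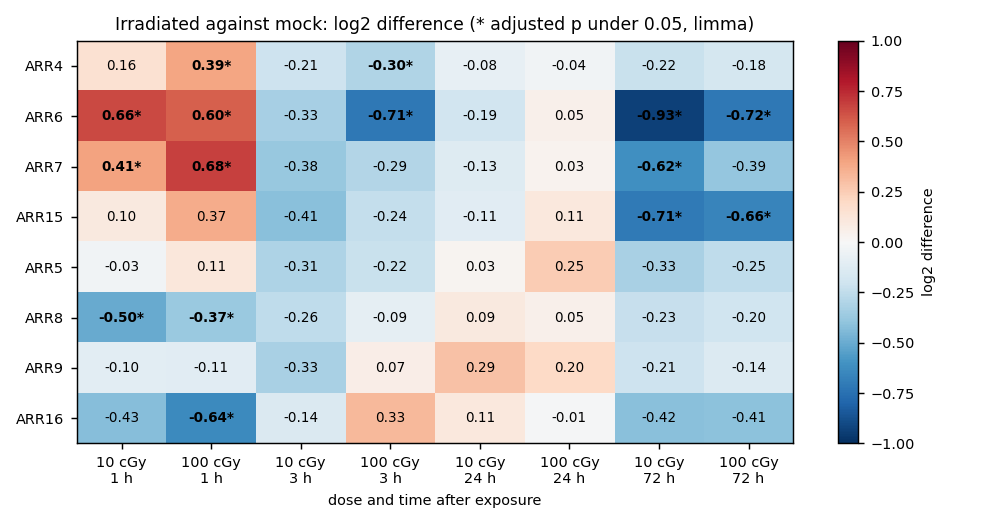
Differences from mock on the log2(CPM + 0.5) scale for the 8 tested type-A genes, at each time after 10 cGy and 100 cGy. Values are given in colour and in figures, and an asterisk marks a limma adjusted p under 0.05. ARR6 goes from 0.66 and 0.60 at 1 h to −0.93 and −0.72 at 72 h at the lower and higher dose, while ARR8 lies at −0.50 and −0.37 at 1 h.

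At 24 h after exposure no member passed the limma test at either dose. At an unadjusted p under 0.05 there was 1 member of 8 after 10 cGy and 0 after 100 cGy, beside 19.1% and 14.1% of all genes, and with the adjusted p 3.29% and 0.599% of all genes were called. The member was ARR9, at 35.7, 35.7 and 40.9 CPM in mock libraries and 50.6, 41.5 and 45.8 after 10 cGy, with no overlap and a difference of 0.29 (SE 0.0975, adjusted p = 0.093). ARR7 measured 44.5, 41.6 and 40.8 CPM in mock libraries, 39.0, 44.5 and 33.2 after 10 cGy and 51.1, 37.5 and 42.5 after 100 cGy, which overlapped throughout.

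At 72 h after exposure all 8 tested members had negative differences at both doses, with medians of −0.37 after 10 cGy and −0.32 after 100 cGy beside 0.03 and 0.04 over all genes. After 10 cGy ARR6, ARR7 and ARR15 fell, 3 of 8, where 4.66% of all genes fell, a share that ran from 1.10%, without the second mock library, to 4.63% when 1 library was left out and was 1.19% with the 72 h libraries alone. In 6 of the 8 every 10 cGy library lay under every mock library, beside 11.9% of all genes. After 100 cGy ARR6 and ARR15 fell, 2 of 8, where 0.217% of all genes fell. With rescaling by median ratios 61.5% of the calls over all genes at 100 cGy were higher, against 86.3% without it, and both member calls stood. That background rests on 41 lower genes, a number that ran from 1, without the first 100 cGy library, to 121, without the third mock library, and was 4 with the 72 h libraries alone and 85 with rescaling.

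ARR6 measured 12.7, 20.6 and 19.3 CPM in mock libraries at 72 h, 8.28, 7.74 and 10.5 after 10 cGy, and 7.87, 13.3 and 10.1 after 100 cGy. The 10 cGy libraries lay under all mock libraries, while the highest 100 cGy library passed the lowest mock library. The fall after 10 cGy was 0.93 (SE 0.185, limma adjusted p = 0.00271), from a mean of 17.5 ± 4.24 to 8.83 ± 1.44 CPM (SD, n = 3), and held in every alternative. The fall after 100 cGy, 0.72 (adjusted p = 0.0448), was lost without the second or the third mock library (adjusted p = 0.219 and 0.0732) or the first or the third 100 cGy library (adjusted p = 0.31 and 0.0521). It was also lost with the 72 h libraries alone (adjusted p = 0.15) and without the filter on low genes (adjusted p = 0.0666).

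ARR15 measured 7.18, 10.8 and 9.11 CPM in mock libraries, 5.27, 4.66 and 5.92 after 10 cGy, and 5.13, 6.55 and 4.80 after 100 cGy. Every irradiated library lay under every mock library at both doses. The fall after 10 cGy was 0.71 (SE 0.158, limma adjusted p = 0.00568) and was lost without the second mock library, the highest (adjusted p = 0.066). The fall after 100 cGy was 0.66 (adjusted p = 0.0346). It was lost without the first or second mock library (adjusted p = 0.0545 and 0.195), without the first or the third 100 cGy library (adjusted p = 0.201 and 0.0647), with the 72 h libraries alone (adjusted p = 0.102), and without the filter on low genes (adjusted p = 0.0505).

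ARR7 measured 19.7, 28.1 and 24.3 CPM in mock libraries, 15.8, 14.8 and 15.4 after 10 cGy, and 16.3, 21.5 and 16.8 after 100 cGy. The 10 cGy libraries were close together under the mock libraries, and the fall of 0.62 passed (SE 0.145, limma adjusted p = 0.00799) except without the second mock library (adjusted p = 0.0835). The 100 cGy difference of −0.39 did not pass (adjusted p = 0.153). ARR4 measured 76.9, 95.2 and 85.9 CPM in mock libraries and 67.4, 74.5 and 78.3 after 10 cGy, with an overlap of 1 library and a difference of −0.22 (adjusted p = 0.0556). It passed under rescaling by median ratios (adjusted p = 0.0318), without the first mock library (adjusted p = 0.0165) and without the third 10 cGy library (adjusted p = 0.0473).

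At 72 h the first mock library was the lowest of its group for ARR4, ARR5, ARR6, ARR7, ARR8, ARR9 and ARR15. The 4 meristem genes summed to 3.39 to 8.57 CPM in mock, 7.59 to 12.0 after 10 cGy and 6.03 to 10.5 after 100 cGy, with WUS and CLV3 at 3 reads or fewer in any library. STM and KNAT1 did not pass the test at either dose, and their part in the type-A differences was not tested. ARR6, ARR7 and ARR15, the genes that fell at 72 h after 10 cGy, also fell from 24 to 72 h in mock plants. So did ARR4 and ARR8, and 20.7% of all genes were lower in that mock comparison. Both comparisons use the 72 h mock libraries.

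Across the 12 group means of log2(CPM + 0.5), the members fell into 2 sets of like profiles, ARR4, ARR6, ARR7 and ARR15, and ARR5, ARR8, ARR9 and ARR16. ARR6 and ARR7 correlated at Pearson r = 0.966, and each was the gene most like the other among all 18875 tested. ARR7 and ARR15 correlated at 0.95, ARR6 and ARR15 at 0.892, and ARR4 with ARR7 at 0.847. ARR8 correlated with ARR9 at 0.925 and with ARR5 at 0.919, and with ARR16 at 0.839. Across the sets the values ran from −0.15 for ARR4 with ARR9 to 0.773 for ARR5 with ARR15, which is above the 0.749 of ARR4 with ARR15 and the 0.74 of ARR5 with ARR16 within a set. The sequence pairs ARR7 with ARR15 and ARR8 with ARR9 lay within a set, while ARR5 and ARR6 correlated at 0.626 across them. The group means share libraries and carry the time course of the mock plants, so these values describe the profiles and have no p-value.

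**Figure D3:**
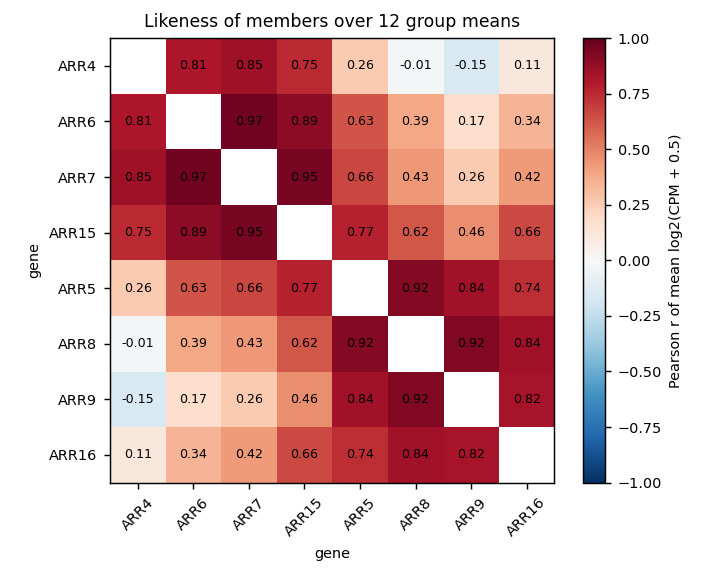
Pearson correlation of the mean log2(CPM + 0.5) over the 12 groups for each pair of tested type-A genes, in colour and in figures. ARR4, ARR6, ARR7 and ARR15 form one block, up to 0.966, and ARR5, ARR8, ARR9 and ARR16 another, up to 0.925.

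The gene outside the family whose group means were most like those of ARR4 was CRF2, with r = 0.97 over 12 group means and 0.918 over the 36 libraries, where it was again the first. CRF2 encodes a cytokinin response factor, an AP2-type transcription factor. SOFL1 was among the nearest to ARR7, at 0.955. AT5G47540 was nearest to both ARR6 and ARR7, at 0.931 and 0.957, AT5G15740 to ARR15 at 0.987, AT5G43150 to ARR8 at 0.989 and AT1G08180 to ARR9 at 0.991. For ARR9 that value fell to 0.773 over single libraries.

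CRF2 rose at 1 h at both doses, and its differences at the later times were negative. It measured 21.2 ± 1.23 CPM in mock plants at 1 h, 38.8 ± 1.39 after 10 cGy and 47.5 ± 2.22 after 100 cGy (SD, n = 3). By limma these were rises of 0.86 and 1.15 (adjusted p = 2.44e-07 and 1.74e-09), which held in every alternative. At 72 h it measured 13.3 ± 0.696 CPM in mock plants and 9.30 ± 0.711 after 10 cGy, a fall of 0.50 (adjusted p = 0.00318), which also held in every alternative, while the 100 cGy difference of −0.24 did not pass (adjusted p = 0.209). At 3 h it fell by 0.42 after 100 cGy (adjusted p = 0.00916), and at 24 h by 0.52 after 10 cGy (adjusted p = 0.0042), and both calls were lost when the libraries of that time were fitted alone. The 24 h difference after 100 cGy, −0.45 (adjusted p = 0.0402), did not pass in the 24 h libraries alone with the replicate number as a block (adjusted p = 0.272), nor without any 1 of the 6 libraries except the first 100 cGy library (adjusted p = 0.0673 to 0.232), without the filter (adjusted p = 0.0566) or with the 24 h libraries alone (adjusted p = 0.26). The 3 h difference after 10 cGy, −0.40 (adjusted p = 0.0402), was lost without the first or second library of either group (adjusted p = 0.0776 to 0.33), without the filter on low genes (adjusted p = 0.0607) and with the 3 h libraries alone (adjusted p = 0.197). CRF2 shares the libraries with ARR4 and was picked here for its likeness, so its course is given as a description beside that of ARR4.

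**Figure D4:**
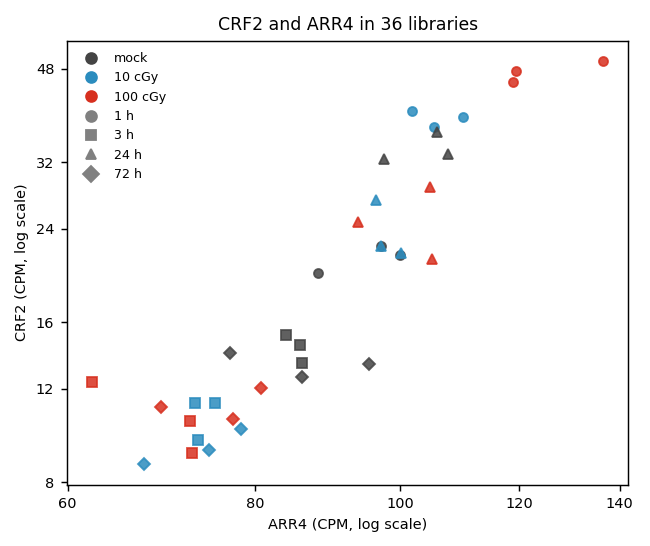
CRF2 against ARR4 in CPM on log axes for each of the 36 libraries, with dose by colour and time by marker shape. The 100 cGy libraries at 1 h lie at the top right, at 119 to 136 CPM of ARR4, and the irradiated libraries at 3 and 72 h lie at the lower left.

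The rest of the cytokinin pathway was described with 8 lists holding 60 genes, of which 37 were tested. At 1 h, 14 of the 37 rose and 5 fell after 10 cGy, with a median difference of 0.07, and 11 rose and 2 fell after 100 cGy, with a median of 0.20. Over all genes 13.6% rose and 11.8% fell after 10 cGy and 10.3% rose and 7.37% fell after 100 cGy, with medians of −0.01 and 0.02. Without the first 10 cGy library at 1 h, 10 rose and 1 fell after 10 cGy. Against mock at the later times between 1 and 7 of the 37 passed in a comparison, where between 0.599% and 12.4% of all genes did, and between 0 and 11 when 1 library was left out.

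Of the 14 tested genes upstream of the type-A genes (receptors, phosphotransfer proteins and type-B regulators), 2 rose and 4 fell at 1 h after 10 cGy, or 42.9% beside 25.3% of all genes in either direction. After 100 cGy 1 rose and 2 fell, or 21.4% beside 17.6% of all genes. The receptors AHK3 and AHK4 fell after 10 cGy by 0.18 and 0.36 (limma adjusted p = 0.0176 and 0.0327), and AHK3 fell by 0.25 after 100 cGy (adjusted p = 0.00166). Of the type-B regulators, ARR12 rose by 0.35 and 0.31 at the lower and higher dose (adjusted p = 0.000601 and 0.00321). ARR14 fell by 0.41 and 0.58 (adjusted p = 0.0143 and 0.000976), and ARR11 fell by 0.47 after 10 cGy (adjusted p = 0.0329). The phosphotransfer gene AHP1 rose by 0.47 after 10 cGy (adjusted p = 0.0439). Leaving out the first 10 cGy library ended the 10 cGy calls of AHK3, AHK4, ARR14, ARR11 and AHP1 (adjusted p = 0.0857, 0.089, 0.0846, 0.102 and 0.0547). Each was also lost without at least 1 mock library, with an adjusted p of up to 0.0595 for AHK3, 0.111 for AHK4, 0.0808 for ARR14, 0.16 for ARR11 and 0.13 for AHP1, and the AHP1 call was lost without any 1 of the 6 libraries. The ARR12 calls and the 100 cGy calls of AHK3 and ARR14 held in every alternative. At 72 h after 10 cGy AHP4, a phosphotransfer protein, rose by 1.15 (adjusted p = 0.00326), a call that was lost with the 72 h libraries alone.

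Of the genes that break down or conjugate cytokinin, 4 of the 8 tested rose at 1 h after 100 cGy and 0 fell, and 3 rose and 1 fell after 10 cGy. Over all genes 10.3% rose and 7.37% fell after 100 cGy, and 13.6% rose and 11.8% fell after 10 cGy. Of the 6 tested genes of cytokinin synthesis and activation, 2 rose after 10 cGy and 1 after 100 cGy, where 13.6% and 10.3% of all genes rose. These were LOG1 and LOG8, which encode enzymes that release active cytokinin from its nucleotide, after 10 cGy, and LOG8 after 100 cGy. The LOG8 calls were lost without any 1 of the 6 libraries at either dose, and the LOG1 call without any but the third 10 cGy library. CKX4, a cytokinin oxidase, measured 12.3 ± 1.96 CPM in mock plants, 23.8 ± 3.06 after 10 cGy and 27.0 ± 2.28 after 100 cGy, rises of 0.92 and 1.11 (limma adjusted p = 0.000544 and 8.33e-05). UGT85A1, which attaches glucose to zeatin, went from 16.1 ± 4.14 CPM to 45.8 ± 5.04 and 44.1 ± 2.59 (adjusted p = 0.000121 and 0.000251). CKX6 rose by 0.65 at either dose, and UGT76C2, which also attaches glucose to cytokinins, fell by 0.60 after 10 cGy (adjusted p = 0.0021).

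Of the 6 cytokinin response factors, 4 rose at 1 h after each dose, and CRF2, CRF5 and CRF6 held in every alternative at both. Over all genes 13.6% rose after 10 cGy and 10.3% after 100 cGy. CRF5 and CRF6 rose by 0.60 and 0.66 after 10 cGy and by 0.68 and 0.73 after 100 cGy. The 3 tested F-box genes of the KMD family, whose proteins mark type-B regulators for degradation, all rose after 10 cGy. KMD2 measured 2.62 ± 0.676 CPM in mock plants and 10.5 ± 1.93 after 10 cGy (SD, n = 3), a rise of 1.82 (limma adjusted p = 4.28e-06), with 1.83 after 100 cGy (adjusted p = 5.24e-06). After 100 cGy KMD2 was the 1 KMD gene called. Beside these lists, the 8 type-A genes had 3 and 5 calls at 1 h at the lower and higher dose, in both directions. Over all genes 25.3% and 17.6% were called in either direction.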

How the data were processed

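RNA of 36 rosette libraries was grouped by dose and time as the labels give them. The authors deposited a table of CPM for 33977 genes, and a second one on the natural log scale of CPM + 1, made by the authors, which differed from the log of the first by at most 4.11e-09 and was not used further. Per the submitters' processing notes, the build was TAIR10 and the tools include RSEM 1.2.28, STAR 2.5.2b and Trimmomatic 0.32, with no annotation, filter or role given. Only part of the nonzero values, 88.8% to 90.6% by library, came out as whole reads (tolerance 0.02), so count tests were not used. The deposited tables hold 0 unused data columns.

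Genes with at least 1 CPM in at least 3 libraries were kept. The package limma 3.58.1 (R 4.3.3) fitted 12 group means to log2(CPM + 0.5) of the 36 libraries together, with trended moderation of the variance and Benjamini-Hochberg adjustment over the 18875 genes within each contrast, called at 0.05 and tested on simulated data. Differences are on the log2(CPM + 0.5) scale, which understates changes of low genes. Gene spans, transcript lengths and upstream windows came from RefSeq's TAIR10.1, matched by locus identifier for 32548 genes and all 10 members. The files hold no coordinates, and the labels name TAIR10. Other steps used python 3.11.15 with pandas 2.3.3, numpy 2.4.6, matplotlib 3.10.9 and scipy 1.17.1.

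The members, the 8 lists of pathway genes and the marker lists were chosen with earlier results of these data known. Named genes were the members, up to 4 called genes of smallest p per list and contrast with mock, and the 2 genes nearest each member over group means. Alternatives were pseudocounts of 0.1 and 1, no filter, rescaling by median ratios, only the libraries of the times compared, a replicate block, and leaving out each library in turn; 24 h libraries alone with a replicate block were added after seeing the data. The main fit did not pair libraries by replicate number, and the blocks, over all libraries and at 24 h, were alternatives only. Deviations of same-numbered libraries from their group means were all over 0.1 in correlation only for mock and 100 cGy at 24 h, at 0.248 to 0.341. Differently numbered libraries of 2 groups at the same time also correlated at up to 0.43. Of those pairs 24 of 72 were over 0.1, against 10 of 36 same-numbered pairs, so a true pairing is not established.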

Additional observations from a re-analysis of the deposited data

Results flagged for a closer look

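For ARR4, ARR6, ARR7 and ARR16, the difference of irradiated from mock plants was not the same at 3 h as at 1 h, by limma's test of the 3 h difference minus the 1 h difference. After 10 cGy the values were −0.36 for ARR4, −0.99 for ARR6 and −0.78 for ARR7 on the log2 scale. After 100 cGy they were −0.70 for ARR4, −1.31 for ARR6 and −0.97 for ARR7. Each of these 3 genes went from a positive difference at 1 h to a negative one at 3 h at both doses. ARR16 went from −0.64 at 1 h to 0.33 at 3 h after 100 cGy, a change of 0.96. Its 3 h difference alone did not pass (limma adjusted p = 0.234), and those libraries overlapped mock. In mock plants ARR16 itself fell by 0.60 from 1 to 3 h. ARR15, which shares much of the course of ARR7, had −0.61 after 100 cGy and did not pass (adjusted p = 0.0793), though it did under rescaling by median ratios (−0.70, adjusted p = 0.0314) and without the third 100 cGy library at 3 h (adjusted p = 0.0227). The 2 doses share the mock libraries of both times.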

How the results depend on the processing

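The 8 tested members gave 144 values over all comparisons, of which 39 passed the test. Of these calls 22 held in every alternative, and no call turned its direction in any, while 46 sign changes fell on values that had not passed. The calls of the 100 cGy comparison at 72 h, 2 in all, went to 0 without the filter on low genes and to 0 with the 72 h libraries alone. The 1 call of 100 cGy against 10 cGy at 3 h went to 0 under rescaling by median ratios and to 0 with the 3 h libraries alone. Leaving out 1 library in turn gave 2 to 5 member calls for 100 cGy at 1 h, 0 to 1 for 10 cGy at 3 h and 1 to 2 for 100 cGy at 3 h. It gave 1 to 4 for 10 cGy at 72 h, 0 to 2 for 100 cGy at 72 h, 0 to 2 for 100 cGy against 10 cGy at 3 h, and 1 to 3 for mock plants at 3 h against 1 h. The cause of these shifts was not tested.

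Rescaling by median ratios changed the share of higher among all calls over all genes from 51.8% to 62.3% for 10 cGy at 3 h, from 79.5% to 33.9% for 10 cGy at 24 h, from 33.6% to 49.5% for 100 cGy at 24 h, from 93.5% to 33.7% and from 12.7% to 80.4% for 100 cGy against 10 cGy at 3 h and 24 h, and from 68.5% to 40.1% for the 100 cGy change between 3 h and 1 h. Correlations of the deviations of same-numbered libraries within a time ranged from −0.429 to 0.412, and 9 of 36 libraries correlated best with their own number. All 3 pairs were over 0.1 for mock and 100 cGy at 24 h, and not for any other pair of groups. With the 24 h libraries alone and the replicate number as a block, chosen after seeing the data, 0 members were called at 24 h, as without it. Over all genes that fit called 0% for 10 cGy against mock. It called 0.0053% for 100 cGy against mock and 0.0053% for 100 cGy against 10 cGy. With so few calls over all genes, a count of 0 says little about the members. With the replicate number as a block over all libraries, all 39 calls held, and ARR4 after 10 cGy at 72 h was added (adjusted p = 0.044), which gave 4 member calls there. Of the 52 values of named pathway genes, 24 held in every alternative. Of the 16 likeness values over group means, 6 moved by more than 0.1 over single libraries. Depth limits ARR3 and ARR17, which lay under 3 reads in nearly all libraries.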

Other observations

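Summed over all 10 members, the type-A level was 204 ± 14.4 CPM in mock plants at 1 h, 221 ± 14.3 after 10 cGy and 249 ± 12.7 after 100 cGy (SD, n = 3). At 72 h it was 239 ± 28.5 CPM in mock plants, 189 ± 6.66 after 10 cGy and 199 ± 17.2 after 100 cGy, and the 10 cGy range of 183 to 196 CPM lay under the mock range of 207 to 261. ARR4 was the largest single part of these sums, and no test was made on them.

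ARR5 is the sequence partner of ARR6, which rose at both doses at 1 h. At that time ARR5 measured 8.42, 11.2 and 10.9 CPM in mock libraries, 8.33, 10.9 and 10.6 after 10 cGy, and 10.8, 11.6 and 10.5 after 100 cGy, with differences of −0.03 and 0.11 that did not pass by limma (adjusted p = 0.92 and 0.749). Whether the partners differ in their response was not tested.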
